A study of Homo sapiens with 12 samples.

Results

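The 902 genes that appear in both deposited count tables of the study were compared between its IgG control groups, 3 libraries against 3 libraries. U937 is an established human pro-monocytic cell line that grew from a histiocytic lymphoma and is widely used as a model of monocytes and of myeloid leukaemia. By the labels, every group of cells was first given interferon gamma at 50 ng/mL, and was then cultured for 72 h with an antibody, whose concentration the labels write as 5 mg/mL. The antagonist antibody of LILRB3 and its nonspecific IgG control formed set 1, and the agonist antibody of LILRB3 and its own nonspecific IgG control formed set 2. Each of these 4 groups had 3 libraries, and the 6 IgG libraries are the subject here. Whether the 3 libraries of a group were grown as separate cultures is not stated, and every p-value here rests on the scatter among them, which may be technical.

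The IgG libraries of the 2 sets carry the same labels, so the comparison asks how alike the baselines were against which each antibody was measured. The sets also differ in the table they were deposited in, in their column headings and in any batch of culture, library or sequencing, and these cannot be told apart from one another. The columns of set 1 are headed IFN_IgG, whereas those of set 2 are headed IgG Ctrl and name no interferon, which the labels list for either set. The columns carry no replicate number, so libraries are numbered below by their order in the table, which pairs nothing.

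The set 2 table lists 904 genes, against 28395 rows in set 1, and how they were selected is not stated. Of the 902 shared genes, 893 (99.0%) differed between the agonist and IgG libraries of set 2 at an adjusted p under 0.05 by edgeR's quasi-likelihood test, so they cannot be read as a sample of all genes. Counts were scaled to CPM, counts per 1000000 counts of the shared genes in each library. A value is therefore a share of the shared counts, with a zero point that moves when abundant genes move. In bulk RNA, fewer cells of a type and less RNA per cell cannot be told apart.

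Interferon gamma binds the receptor chains IFNGR1 and IFNGR2, activates the kinases JAK1 and JAK2 and so switches on IRF1, guanylate-binding proteins, CXCR3 chemokines and the antigen presentation genes. Type I interferons act through a complex that holds STAT2 and IRF9 and share many of these targets. LILRB3, found on monocytes and granulocytes, dampens signalling through ITIM motifs that recruit phosphatases. When U937 cells mature towards macrophages they typically divide less, lose MYC and gain CD14, integrins, S100 proteins and lysosomal enzymes.

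Promoters of interferon genes are shown first, because interferon targets were among the genes that differed most between the IgG groups. Each line gives the 250 bases before a transcript start in RefSeq (GRCh38.p14), read 5′ to 3′ on the gene's own strand. Capitals mark GAAA-NN-GAAA, written without the hyphens and read TTTC-NN-TTTC on the other strand, the letters of an interferon-stimulated response element, and TTCNNNGAA, which reads the same on both strands, the letters of a gamma-activated site. The windows are chr4:76023498-76023747 on the minus strand for CXCL10, chr1:78620198-78620447 on the plus strand for IFI44L, chr1:27672193-27672442 on the minus strand for IFI6, chr1:1013247-1013496 on the plus strand for ISG15, chr5:132490774-132491023 on the minus strand for IRF1 and chr14:100375348-100375597 on the minus strand for WARS1. The first 5 were higher in set 2, and WARS1 is shown as an interferon target that was not.
CXCL10: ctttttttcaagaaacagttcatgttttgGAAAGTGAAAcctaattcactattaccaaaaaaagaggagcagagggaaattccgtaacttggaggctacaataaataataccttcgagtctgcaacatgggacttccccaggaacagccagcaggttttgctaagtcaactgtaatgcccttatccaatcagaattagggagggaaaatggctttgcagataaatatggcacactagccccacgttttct
IFI44L: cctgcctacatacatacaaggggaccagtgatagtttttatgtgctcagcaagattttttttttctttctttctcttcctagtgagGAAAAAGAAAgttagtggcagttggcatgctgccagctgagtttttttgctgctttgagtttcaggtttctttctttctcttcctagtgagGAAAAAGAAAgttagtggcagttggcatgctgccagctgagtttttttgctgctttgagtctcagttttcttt
IFI6: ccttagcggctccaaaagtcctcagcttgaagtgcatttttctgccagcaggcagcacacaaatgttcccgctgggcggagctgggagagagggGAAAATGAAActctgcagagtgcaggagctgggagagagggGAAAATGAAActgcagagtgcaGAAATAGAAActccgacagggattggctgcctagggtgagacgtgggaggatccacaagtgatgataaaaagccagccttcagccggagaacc
ISG15: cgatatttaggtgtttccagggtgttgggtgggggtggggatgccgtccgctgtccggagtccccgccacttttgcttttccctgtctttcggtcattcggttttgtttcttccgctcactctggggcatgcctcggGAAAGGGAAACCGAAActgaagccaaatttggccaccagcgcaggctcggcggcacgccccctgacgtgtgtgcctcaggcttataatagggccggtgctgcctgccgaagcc
IRF1: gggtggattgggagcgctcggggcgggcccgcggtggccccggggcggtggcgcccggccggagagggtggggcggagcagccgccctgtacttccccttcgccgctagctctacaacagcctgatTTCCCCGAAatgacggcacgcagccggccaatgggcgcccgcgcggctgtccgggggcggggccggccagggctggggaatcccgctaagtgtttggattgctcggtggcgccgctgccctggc
WARS1: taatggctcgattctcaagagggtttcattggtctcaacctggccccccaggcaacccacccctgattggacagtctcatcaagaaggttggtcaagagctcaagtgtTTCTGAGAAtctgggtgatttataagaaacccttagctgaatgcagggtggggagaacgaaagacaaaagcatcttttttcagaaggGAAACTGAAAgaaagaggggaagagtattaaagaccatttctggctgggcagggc

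Of the 26 shared genes on the interferon lists, 20 had a promoter entry in the RefSeq table. GAAA-NN-GAAA lay in a promoter of 13 of these 20 genes (65%), against 6.1% of the 688 shared genes with an entry. The share was 3.71% of the 27305 genes in the table. TTCNNNGAA lay in a promoter of 9 of the 20 (45%), against 7.99% of those shared genes and 8.09% of all genes in the table. The lists were made of interferon targets, so these shares say nothing about the difference between the IgG groups. The letters overlap in some promoters, as in BST2. A match of letters is a description of sequence and not evidence that a factor bound there, and WARS1, with 1 match of each motif in the window shown, did not share the direction of CXCL10 or IRF1.

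The shared genes held 2546977 to 2773701 reads in the IgG libraries of set 1, which was 14.7% to 14.9% of all counts in that table, and 2764069 to 3321209 reads in those of set 2. The median coefficient of variation among the 3 libraries was 6.8% in set 1 and 4.92% in set 2, over genes of at least 20 CPM. Pearson's r of log2(CPM + 1) was 0.994 to 0.996 within set 1 and 0.993 to 0.995 within set 2, and 0.786 to 0.809 between the sets. Chi-square per degree of freedom, near 1 for pure sampling noise, was 5.06 to 34.3 within set 1, where library 1 stood somewhat apart from the other libraries. It was 5.34 to 5.71 within set 2 and 1010 to 1140 between sets, so no pair of libraries repeated another.

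The labels were checked against marker genes before the groups were compared. In the whole set 1 table, 15 of 19 U937 and monocytic markers exceeded 10 CPM of all counts in the IgG libraries, among them CTSG, AZU1, CEBPA, ELANE and SPI1. MPO, CD14 and LILRB4 were each under 1 CPM. Of 24 markers of T, NK, B, erythroid, epithelial and fibroblast cells, 18 were under 1 CPM and 8 were at 0, including CD3D, CD3E, MS4A1, HBB and EPCAM. Their summed level was 601 to 620 CPM of all counts, most of it NKG7 and VIM, against 7550 to 8680 CPM for the monocytic markers. In set 2 only shared genes can be seen: 5 monocytic markers were present, and NKG7 was the only shared marker of another cell type, at 2319 ± 74.7 CPM in set 1 and 1290 ± 77.1 CPM in set 2 (SD, n = 3).

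The interferon label of set 1 went with low levels of many interferon gamma targets. Over the 3 IgG libraries of set 1, IDO1 had 0 counts, CXCL9 had 1, GBP1 had 2 and HLA-DRA had 2, out of 17142362 to 18820312 counts in each library. None of these 4 genes is in the set 2 table. The pathway genes themselves were present: IFNGR1 was at 67.6 ± 3.76 CPM of all counts, IFNGR2 at 31.9 ± 0.362, JAK1 at 110 ± 2.92 and JAK2 at 18.2 ± 2.17 (SD, n = 3). LILRB3, the target of the antibodies, had 2, 1 and 2 counts in the same libraries. Whether the cells of set 1 answered interferon cannot be read from these libraries, since the design holds no group without it.

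Across the shared genes, the IgG groups differed in most of what was measured. Of 892 genes that passed the filter on low counts, 770 (86.3%) differed at an adjusted p under 0.05 by edgeR's quasi-likelihood test, with 413 (46.3%) higher in set 2 and 357 (40.0%) lower. More than a 2-fold difference was supported by the same tool for 332 genes (37.2%), 191 (21.4%) higher and 141 (15.8%) lower. The median log2 difference, set 2 minus set 1, was 0.08 and the median size 0.87. Differences beyond 8-fold were mostly to one side: of 58 genes with a log2 difference past 3, 51 were higher in set 2. Every shared gene had to be listed for set 2, and 5 had 0 counts in IgG set 1, against 0 in IgG set 2. Genes with few counts in set 2 may thus be missing here. The part of this selection in the imbalance was not tested. Among the 902 shared genes, the 3 libraries of each set did not overlap for 788 (87.4%), with set 2 above for 46.5% and set 1 above for 40.9%.

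**Figure D1:**
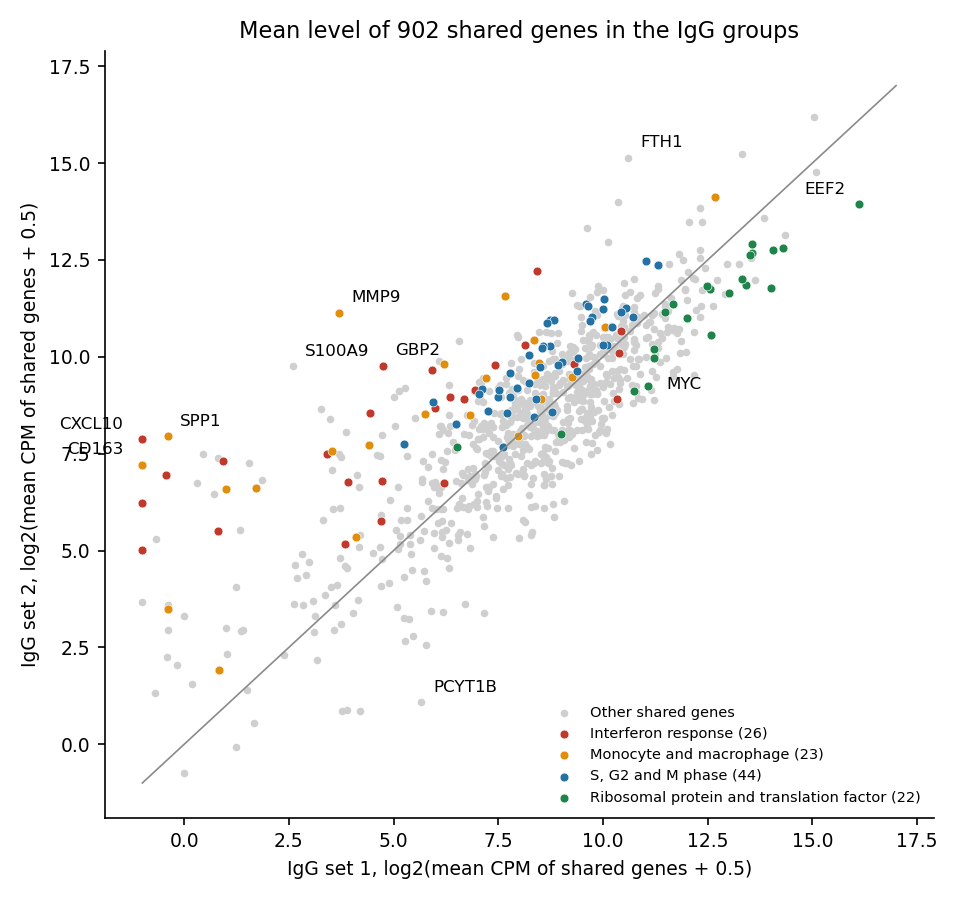
Mean level of each of the 902 shared genes in the 3 IgG libraries of set 1 (x axis) and of set 2 (y axis), both as log2(mean CPM of shared genes + 0.5), with the line of equal level. Most interferon and monocyte genes lie above the line, over a wide range of set 1 levels, but LY6E, WARS1 and, by a small margin, CLEC5A lie below it. Most ribosomal protein and translation genes lie below the line, but RPL22L1 lies above it. CXCL10 and CD163 are at the left edge because they had 0 counts in set 1.

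Of all tested genes, 86.3% differed, 46.3% higher and 40.0% lower in set 2. A count of members called in a list therefore says little alone. Each list below is read by its direction and size beside these shares and the medians over all genes tested. No test of a list against other genes was made.

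**Figure D2:**
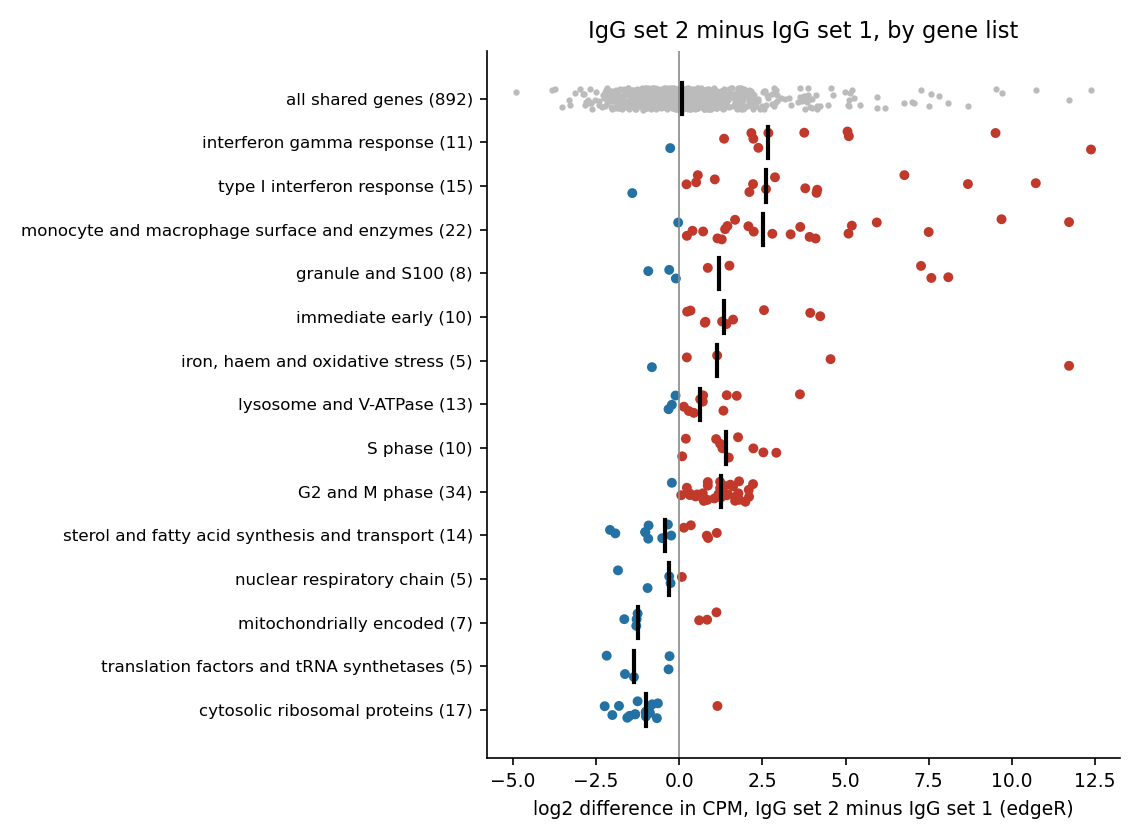
Log2 difference in CPM of shared genes, IgG set 2 minus IgG set 1, for all 892 tested genes (grey) and for the tested members of 14 gene lists (red above 0, blue below 0, whether or not a gene passed the test); black bars are medians. The interferon and monocyte lists have medians of 2.5 to 2.7, and the ribosomal and translation lists have medians of -1.01 and -1.36; fitted values of the 5 genes at 0 counts in set 1 depend on the prior count.

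Interferon gamma targets were higher in set 2 in all but 1 case. Of the 41 listed genes in the set 1 table, 11 were shared, and 10 of the 11 were higher in set 2 and 1 was lower, with a median log2 difference of 2.68. The difference exceeded 2-fold for 9 of them, all higher in set 2, against 21.4% of all genes tested. Among the 5 members without exon overlap with another gene, all were higher, with a median of 5.10. CXCL10, SERPING1 and CXCL11 are among them, with 0, 0 and 10 counts in all in IgG set 1. These genes passed the filter only through set 2, so that median is no separate support. The 11 genes together took 0.201% to 0.21% of shared counts in set 1 and 0.615% to 0.618% in set 2.

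CXCL10, a chemokine that draws T cells through CXCR3, had 0 counts in each IgG library of set 1 and 228, 224 and 250 CPM in the libraries of set 2 (756, 620 and 789 counts). Set against a floor of 3 counts over the set 1 group, it was at least 617-fold higher in set 2. SERPING1, the C1 inhibitor, was likewise at 0 in set 1 and at 37.9, 32.2 and 25.4 CPM in set 2, at least 84.0-fold higher. CXCL11, a second ligand of CXCR3, was at 2.16, 1.17 and 0.393 CPM in set 1 and at 46.1, 41.6 and 47.0 CPM in set 2, and the groups did not overlap for any of these 3 genes.

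GBP2, a guanylate-binding GTPase that attacks the vacuoles of pathogens, was at 24.5, 28 and 26.3 CPM in set 1 and at 915, 863 and 849 CPM in set 2. This is a log2 difference of 5.06 ± 0.09 (SE), far beyond the spread of either group (adjusted p = 4.87e-14). GBP5, a relative that promotes inflammasome assembly, was at 111, 112 and 84 CPM and at 480, 500 and 462 CPM, a log2 difference of 2.23 ± 0.11. IRF1, a transcription factor that relays the response to interferon gamma, was at 185, 171 and 158 CPM in set 1 and at 889, 948 and 831 CPM in set 2. Its log2 difference was 2.38 ± 0.08 (adjusted p = 1.61e-11) and every library of set 1 held IRF1 reads.

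Other members followed with IRF9, a subunit of the type I interferon factor, at a log2 difference of 2.68, PARP14, an ADP-ribosyltransferase, at 2.17 and TRIM22, an antiviral ubiquitin ligase, at 3.76. Exons of other genes cover 48.4% of the exon bases of IRF9 on the same strand. SOCS3, a feedback inhibitor of JAK kinases, was at 13.9 ± 5.83 CPM in set 1 and 35.5 ± 11.1 CPM in set 2 (SD, n = 3), a log2 difference of 1.35 ± 0.32. WARS1, the tryptophanyl-tRNA synthetase that interferon gamma induces strongly in monocytes, was the exception. It was at 1339, 1301 and 1342 CPM in set 1 and at 1151, 1066 and 1074 CPM in set 2, so every library of set 2 was lower, by 0.27 ± 0.05 on the log2 scale (adjusted p = 0.00034).

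Genes induced mainly by type I interferon had the same direction. Of 15 shared genes, 14 were higher and 1 was lower in set 2, with a median log2 difference of 2.61, and they took 0.387% to 0.423% of shared counts in set 1 and 0.985% to 1.04% in set 2. IFI44L, an interferon-induced protein of little known function, had 0 counts in set 1 and 67.7, 66.6 and 87.6 CPM in set 2, at least 195-fold higher. Its neighbour and relative IFI44 had 2 counts in all in set 1 and 127, 111 and 127 CPM in set 2, a ratio of 483 with a counting interval of 133 to 3990 (95%). IFI27, which acts on mitochondria, was at 0.721, 2.72 and 0.785 CPM and at 139, 167 and 166 CPM, a log2 difference of 6.77 ± 0.27. All 3 genes were low in every library of set 1 and high in every library of set 2.

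IFI6, an antiviral membrane protein, was at 371, 337 and 316 CPM in set 1 and at 4573, 4895 and 4709 CPM in set 2, a log2 difference of 3.79 ± 0.07. ISG15, the ubiquitin-like modifier, rested at 81.1 ± 6.69 and 497 ± 29.8 CPM (SD, n = 3), and OAS2, an activator of RNase L, at 21.3 ± 1.43 and 373 ± 46.4 CPM. LGALS3BP, a secreted galectin ligand, had a log2 difference of 4.15, IFIT3 one of 2.88, IFITM1 one of 2.22 and IFIT1 one of 2.11. No library of set 1 reached a library of set 2 for any of these genes.

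At the low end of the list, STAT2 was at 651, 622 and 613 CPM in set 1 and at 907, 874 and 913 CPM in set 2, a log2 difference of 0.51 ± 0.06. BST2, which tethers budding virus to the membrane, differed by 0.22 ± 0.08 (adjusted p = 0.0199), and its libraries overlapped between the sets. With TMM factors the difference was 0.15 (adjusted p = 0.0745), and adjusted p was 0.0737 to 0.0878 without library 2 or 3 of IgG set 1 or library 2 of IgG set 2. LY6E, a lipid-anchored antiviral protein, was the only member lower in set 2, at 1283 ± 48.9 and 482 ± 29.1 CPM (SD, n = 3). Its direction turned, to 0.42, when the trend of the difference on GC content and length was removed, as described further down.

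Antigen presentation was represented by 3 shared genes, all higher in set 2. HLA-DRB1, the beta chain of an MHC class II molecule, was at 66.3, 64.2 and 69.9 CPM in set 1 and at 977, 908 and 948 CPM in set 2, a log2 difference of 3.82 ± 0.08. B2M, the light chain of all MHC class I molecules, was at 11151, 9792 and 9607 CPM and at 39464, 37982 and 38059 CPM, a log2 difference of 1.92 ± 0.07. HLA-B, a class I heavy chain, differed by 0.41 ± 0.06. No library of set 1 reached the level of a library of set 2 for any of the 3. HLA genes have near-identical relatives and alleles that may take one another's reads.

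**Figure D3:**
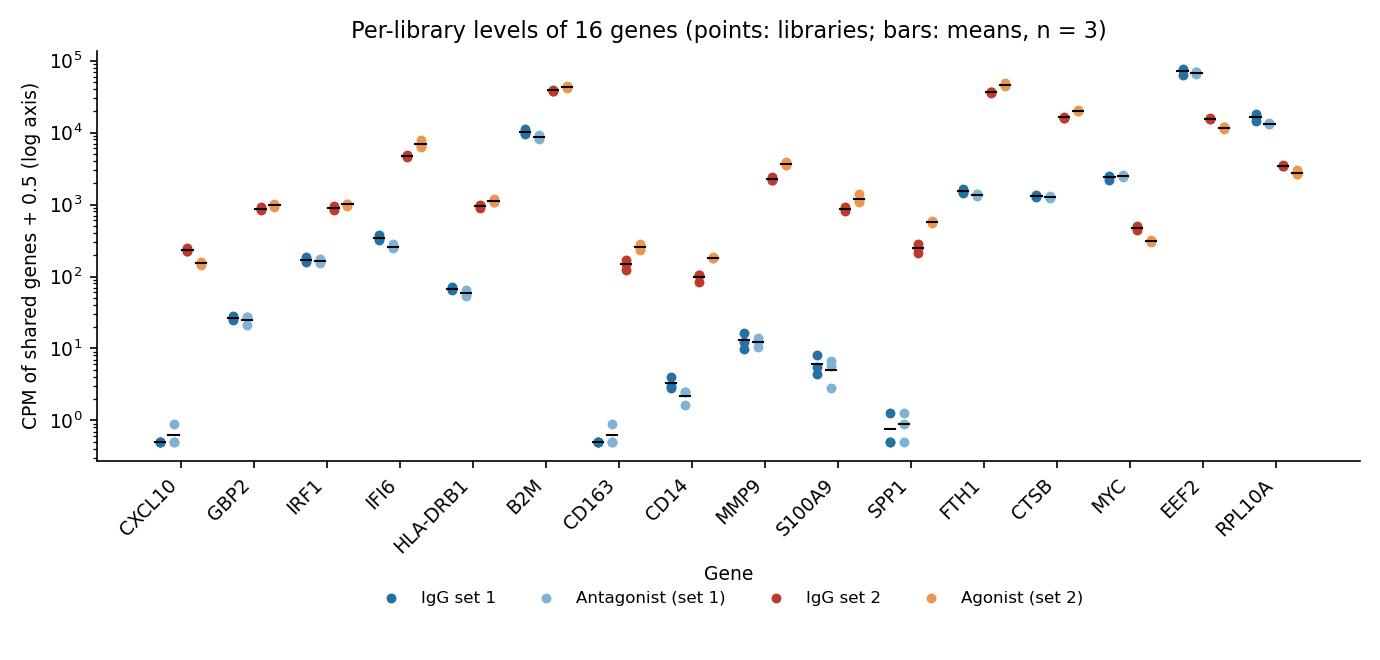
CPM of shared genes + 0.5 (log axis) for 16 genes in each library; dark blue and light blue points are the IgG and antagonist libraries of set 1, red and orange points the IgG and agonist libraries of set 2, and bars are means of 3. The set 1 groups lie close to each other and far from the set 2 groups for each gene, above them for MYC, EEF2 and RPL10A and below them for the other 13 genes.

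Surface receptors and enzymes of monocytes and macrophages were higher in set 2 with 1 gene not past the test. Of 23 shared genes, 22 were tested, 21 were higher and none lower, and 17 differed by more than 2-fold, with a median log2 difference of 2.52. Among all genes tested, 46.3% were higher in set 2, and 21.4% were higher by more than 2-fold. Together they took 0.986% to 1.08% of shared counts in set 1 and 3.25% to 3.3% in set 2. The untested gene, ACP5, had 10 counts in all in set 1 and 31 in set 2.

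CD163, the scavenger receptor for haemoglobin on macrophages, had 0 counts in set 1 and 151, 169 and 123 CPM in set 2, at least 386-fold higher. SPP1, the matrix protein osteopontin, had 2 counts in all in set 1 and 248, 209 and 280 CPM in set 2, a ratio of 975 with a counting interval of 270 to 8060 (95%). MMP9, the gelatinase of migrating myeloid cells, was at 11.9, 9.34 and 16.1 CPM and at 2166, 2419 and 2193 CPM, a log2 difference of 7.50 ± 0.12 (adjusted p = 1.96e-14). These genes separated the sets with no overlap; exons of other genes cover 18.4% of the exon bases of MMP9, and the use of strand in counting is not given in the sources used here.

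CD14, the coreceptor for bacterial lipopolysaccharide, was at 2.52, 2.34 and 3.53 CPM in set 1 and at 104, 103 and 83.5 CPM in set 2, a log2 difference of 5.09 ± 0.24. CD86, a costimulatory ligand for T cells, had 1.50 ± 1.30 and 95.7 ± 4.63 CPM (SD, n = 3). CLEC7A, the receptor for fungal glucan also called dectin-1, had 2 counts in all in set 1 and a ratio of 42.7 with a counting interval of 11.5 to 358 (95%). Each was low in all libraries of set 1.

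PLAUR, the urokinase receptor, was at 215, 183 and 205 CPM in set 1 and at 3056, 3037 and 3057 CPM in set 2, a log2 difference of 3.92 ± 0.07. Receptors for complement, lipids and sialic acid went the same way, with C5AR1 at a log2 difference of 3.35, CD36 at 4.10 and SIGLEC1 at 3.64. SIGLEC1, a sialic acid receptor, is itself known to be induced by interferon.

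Fc receptors and their signal adaptors were also higher in set 2. FCER1G, the common gamma chain of Fc receptors, was at 347, 326 and 307 CPM in set 1 and at 1429, 1259 and 1466 CPM in set 2, a log2 difference of 2.08 ± 0.07. TYROBP, the adaptor DAP12, differed by 1.15 ± 0.08 and the inhibitory receptor FCGR2B by 2.80 ± 0.11. For the activating receptor FCGR2A the difference was 0.40 ± 0.07, and it was -0.10 (adjusted p = 0.175) after removal of the trend on GC content and length. CLEC5A, a receptor that signals through DAP12, was at 261, 254 and 238 CPM and at 247, 233 and 260 CPM, with overlapping libraries and a difference of -0.03 ± 0.08 (adjusted p = 0.781).

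Integrins that macrophages use to adhere were abundant in both sets and higher in set 2. ITGB2, the shared beta chain CD18, was at 5905, 6899 and 6837 CPM in set 1 and at 17532, 18240 and 17842 CPM in set 2, a log2 difference of 1.45 ± 0.07. ITGAX, the alpha chain CD11c, differed by 1.38 ± 0.07. CD68, a lysosomal glycoprotein of macrophages, was at 1052 ± 50.5 and 1731 ± 74.1 CPM (SD, n = 3), and CSF1R, the receptor for macrophage colony-stimulating factor, at 16.8 ± 3.05 and 40.6 ± 6.32 CPM. Exons of other genes cover 85.8% of the exon bases of CD68, so its value is uncertain. All 5 shared genes of the U937 and monocytic marker list, CD14, CD68, CSF1R, FCER1G and TYROBP, were higher in set 2, with a median log2 difference of 1.28.

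The S100 alarmins, calcium-binding proteins that neutrophils and monocytes release, separated the sets widely. S100A9 was at 7.57, 3.89 and 5.10 CPM in set 1 and at 819, 909 and 866 CPM in set 2, a log2 difference of 7.27 ± 0.14. Its partner in calprotectin, S100A8, was at 1.44, 0.778 and 0.393 CPM and at 190, 151 and 194 CPM, a log2 difference of 7.58 ± 0.27. S100A12 had 0 counts in set 1 and 9.94, 19.5 and 6.98 CPM in set 2, at least 31.0-fold higher. No value of set 1 came near the lowest value of set 2 for these 3 genes.

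The rest of the granule and S100 list was mixed. Of all 8 genes, 5 were higher and 2 lower in set 2, with a median log2 difference of 1.19. S100A10, the partner of annexin A2, was higher by 0.86 ± 0.09. The granule ribonuclease RNASE3 was at 244 ± 17.9 and 128 ± 17 CPM (SD, n = 3), a log2 difference of -0.93, and RNASE2 was at 382 ± 30.5 and 310 ± 9.67 CPM, a difference of -0.30. S100A4 was at 1555, 1317 and 1260 CPM and at 1244, 1294 and 1312 CPM, with overlapping libraries and a difference of -0.10 ± 0.07 (adjusted p = 0.201), or 0.19 after removal of the trend on GC content and length. SRGN, the proteoglycan core that packs granules, was higher in set 2 by 1.51 ± 0.08, but its direction turned, to -0.59, after removal of the trend on GC content and length.

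Among transcription factors, MYC, the driver of growth and ribosome synthesis, was lower in set 2. It was at 2157, 2449 and 2521 CPM in set 1 and at 446, 503 and 472 CPM in set 2, a log2 difference of -2.33 ± 0.07 (adjusted p = 8.01e-12). RUNX2, a runt-domain factor of bone and myeloid cells, was at 642, 625 and 625 CPM and at 205, 187 and 210 CPM, a log2 difference of -1.65 ± 0.07. The lowest set 1 library lay above the highest set 2 library for both. RUNX1, the haematopoietic runt factor, was instead higher by 0.47 ± 0.07 and ID2, an inhibitor of helix-loop-helix factors, by 0.65 ± 0.07.

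Of the LILR family and related receptors, PILRA alone was shared. PILRA, an inhibitory receptor with an ITIM, was at 77.5, 84.8 and 78.1 CPM in set 1 and at 369, 321 and 402 CPM in set 2, a log2 difference of 2.18 ± 0.11. Of 4 signalling genes downstream of such receptors, FCER1G and TYROBP were higher, as given above. The kinase subunit PIK3CD was at 2376 ± 214 and 2225 ± 43.0 CPM (SD, n = 3) and the adaptor GAB2 at 411 ± 29.9 and 449 ± 24.8 CPM, and neither passed the test. PIK3CD was at -0.17 and passed without library 1 of IgG set 1 (adjusted p = 0.000681) and with TMM factors (adjusted p = 0.0458), and PIK3CD and GAB2 were at 0.49 and 0.41 and passed after removal of the trend on GC content and length.

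Immediate early genes, which respond within minutes to growth factor and stress signals, were higher in set 2 for 10 of 10 shared members, with a median log2 difference of 1.35. FOS, a subunit of AP-1, was at 35.7, 33.1 and 45.2 CPM in set 1 and at 585, 573 and 592 CPM in set 2, a log2 difference of 3.94 ± 0.11. SGK1, a kinase of ion transport induced by steroids and serum, was at 19.1, 12.1 and 11 CPM and at 265, 274 and 267 CPM, a log2 difference of 4.24 ± 0.16. The range of each group was narrow beside the gap between them.

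BTG1, an antiproliferative factor, differed by 2.55 ± 0.08 and the MAP kinase phosphatase DUSP5 by 1.62 ± 0.12. The smallest differences were those of JUNB, at 0.24 ± 0.07, and of the nuclear receptor NR4A1, at 0.34 ± 0.12. Both missed the threshold with TMM factors, at adjusted p = 0.0517 and 0.0656, and NR4A1 also without library 1 of IgG set 2 (adjusted p = 0.0761). Of the inflammatory list, CXCL8, the neutrophil chemokine, was at 1.44, 1.17 and 0.785 CPM in set 1 and at 84.0, 78.5 and 98.4 CPM in set 2, a log2 difference of 6.20 ± 0.28. IL1RN, the decoy ligand of the interleukin-1 receptor, differed by 2.11 ± 0.11, and IL10 was below the filter with 4 counts in all in set 1 and 1 in set 2, a ratio of 0.214 (95% counting interval 0.00434 to 2.16).

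Ferritin stores iron in a shell of heavy chains, which oxidise it, and light chains, which hold the core. FTH1, the heavy chain, was at 1668, 1500 and 1457 CPM in set 1 and at 36307, 36144 and 35610 CPM in set 2, a log2 difference of 4.55 ± 0.07 (adjusted p = 1.96e-14). FTL, the light chain, was at 36481, 32983 and 31249 CPM and at 74602, 74734 and 73002 CPM, a log2 difference of 1.14 ± 0.07. The chains therefore differed between the sets by unequal amounts, and the ratio of FTH1 to FTL counts was 0.0455 to 0.0466 in set 1 and 0.484 to 0.488 in set 2.

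Together the ferritin chains took 3.27% to 3.81% of shared counts in set 1 and 10.9% to 11.1% in set 2. Exons of other genes cover 62.4% of the exon bases of FTH1 on the opposite strand, and both ferritin genes have many near-identical processed copies. How the authors' counting divided such reads is not given, so the FTH1 value is uncertain. GPX1, a peroxide-reducing enzyme, differed by 0.23 ± 0.06.

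Lysosomal genes were mostly higher in set 2, with 9 of 13 higher, 1 lower and a median log2 difference of 0.63. Among all genes tested, 46.3% were higher and 40.0% lower. Of the 13, 4 were higher by more than 2-fold, against 21.4% of all genes tested. CTSB, cathepsin B, was at 1325, 1272 and 1338 CPM in set 1 and at 16123, 16103 and 16474 CPM in set 2, a log2 difference of 3.63 ± 0.05. CTSA, which protects other lysosomal enzymes, differed by 1.73, PSAP, the precursor of saposins, by 1.43 and CTSH, an aminopeptidase cathepsin, by 1.33. CTSD, cathepsin D, was at 30219, 36371 and 37583 CPM and at 28014, 28002 and 27533 CPM, a difference of -0.32 ± 0.08 that turned to 1.00 after removal of the trend. Exons of other genes cover 52.7% of the exon bases of CTSD. CTSZ, MCOLN1 and NPC2 also turned, from -0.11, -0.22 and 0.29 to 1.00, 0.71 and -0.49, and the list median became 1.04. CTSZ passed the test, at -0.14, without library 1 of IgG set 1 (adjusted p = 0.00321).

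The 3 shared genes of the glycolysis and hypoxia list were all higher in set 2. TXNIP, which holds back glucose uptake and binds thioredoxin, was at 1154, 1070 and 1134 CPM in set 1 and at 8049, 8002 and 8082 CPM in set 2, a log2 difference of 2.85 ± 0.05. SLC2A3, a glucose transporter, differed by 2.63 ± 0.07 and HK3, the hexokinase of myeloid cells, by 1.75 ± 0.11. Libraries of a set differed by far less than the sets in each case.

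Cell cycle genes were higher in set 2. Among S phase genes, 9 of 10 were higher and none lower, with a median log2 difference of 1.39. Among genes of G2 and mitosis, 32 of 34 were higher and 1 lower, with a median of 1.24, and the 34 genes took 2.21% to 2.31% of shared counts in set 1 and 4.94% to 5.03% in set 2.

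EXO1, an exonuclease of mismatch repair and recombination, was at 58.8, 62.7 and 60.1 CPM in set 1 and at 487, 440 and 447 CPM in set 2, a log2 difference of 2.92 ± 0.09. KIF23, a kinesin of the central spindle, was at 403, 404 and 403 CPM and at 1867, 1852 and 1920 CPM, a log2 difference of 2.22 ± 0.05. TOP2A, the topoisomerase that untangles sister chromatids, was at 2110, 2114 and 2076 CPM and at 5782, 5427 and 5816 CPM, a log2 difference of 1.43 ± 0.05. In each case the groups lay apart with narrow ranges inside them.

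MCM10 and CDC6, which load and fire replication origins, differed by 2.53 and 1.77, and the AAA protein ATAD2 by 2.23. ANLN, a scaffold of the cleavage furrow, differed by 2.10, CENPE, a kinetochore motor, by 2.09 and CENPU by 1.99. Widely used markers of dividing cells differed less: MKI67 by 0.71, PLK1 by 0.32 and AURKA by 0.23, the last turning to -0.21 after removal of the trend on GC content and length. The replication licensing factor MCM2 differed by 0.20 ± 0.06, and by 0.13 (adjusted p = 0.0633) in DESeq2. UHRF1 and GTSE1 did not pass the test, and CCNF, the cyclin of an SCF ligase, had a difference of -0.22 ± 0.07, or 0.28 after removal of that trend. Without library 2 of IgG set 1 the CCNF difference was -0.18 (adjusted p = 0.056).

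All 5 tested histone genes were higher in set 2. H2BC21 was at 32.1, 27.6 and 34.9 CPM in set 1 and at 521, 460 and 518 CPM in set 2, a log2 difference of 3.98 ± 0.11, and H2AX, the variant phosphorylated at DNA breaks, differed by 1.20 ± 0.09. H2AC6 differed by 3.84 and H1-2 by 3.69. Replication-dependent histone messages mostly lack poly(A) tails, so their counts depend on how RNA was selected, which the labels do not give. Histone genes also have near-identical copies.

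Ribosomal protein genes were lower in set 2. Of 17 shared genes, 16 were lower and 1 was higher, with a median log2 difference of -1.01, and together they took 13.2% to 15.2% of shared counts in set 1 and 5.92% to 6.07% in set 2. RPL10A, of the large subunit, was at 18353, 16405 and 14526 CPM in set 1 and at 3464, 3450 and 3514 CPM in set 2, a log2 difference of -2.24 ± 0.08. RPS23 of the small subunit differed by -2.01 ± 0.11 and RPSA by -1.81 ± 0.10. At the other end RPS6, a target of growth signalling, differed by -0.64 ± 0.06. RPL22L1, a paralog of RPL22, was the member higher in set 2, by 1.15 ± 0.12. Ribosomal protein genes have many near-identical pseudogenes, which makes each single value uncertain.

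Translation factors had the same direction, with 5 of 5 lower in set 2 and a median log2 difference of -1.36. EEF2, which moves the ribosome along the message, was at 62802, 73629 and 75336 CPM in set 1 and at 15564, 15651 and 15666 CPM in set 2, a log2 difference of -2.18 ± 0.07. Library 1 of set 1 was the lowest of its group and still far above every library of set 2. EEF1G, an exchange factor subunit, differed by -1.36 ± 0.05 and EIF3C, a subunit of an initiation factor with a near-identical copy in the genome, by -1.63 ± 0.07. Exons of other genes cover 99.9% of the exon bases of EEF1G on the same strand, so its value is uncertain. NPM1, a nucleolar chaperone of ribosome assembly, differed by -0.91 ± 0.08.

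Of the chaperones, HSP90AB1, the constitutive HSP90, was lower in set 2, at 21330, 19958 and 21162 CPM in set 1 and 9146, 8910 and 9074 CPM in set 2, a log2 difference of -1.20 ± 0.05. STIP1, which links HSP70 to HSP90, was higher by 0.89 ± 0.05. The 6 shared chaperones split into 3 higher and 3 lower, and HSPA4 and HSPH1, higher by 0.37 and 0.25, turned to -0.29 and -0.55 after removal of the trend on GC content and length. SHMT2, the mitochondrial serine hydroxymethyltransferase, differed by -1.15 ± 0.05.

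Transcripts of the mitochondrial genome did not move together. ND2, a subunit of complex I, was at 13115, 12204 and 12425 CPM in set 1 and at 4074, 3926 and 4031 CPM in set 2, a log2 difference of -1.65 ± 0.05. ND5, also of complex I, went the other way, at 5029, 5372 and 5442 CPM and at 11413, 11397 and 11628 CPM, a log2 difference of 1.12 ± 0.05. CYTB, ND1 and ATP8 differed by -1.28, -1.29 and -1.25. The ribosomal RNA RNR1 and the short gene ND4L, which overlaps ND4, differed by 0.60 and 0.84, and both turned, to -0.33 and -0.25, after removal of the trend on GC content and length. Of 5 nuclear genes of the respiratory chain, 4 were lower in set 2 (2 lower and 2 higher after removal of that trend), led by ATP5MC1, a subunit of the ATP synthase rotor, at -1.84 ± 0.10. The smallest of the 4, NDUFA1, at -0.26 ± 0.11, was at -0.12 (adjusted p = 0.156) without library 1 of IgG set 1, and adjusted p was 0.166 and 0.101 without library 1 or 2 of IgG set 2.

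Sterol synthesis genes, which SREBF2 drives when cholesterol is low, were split, with 9 of 14 lower and 4 higher in set 2. Among all genes tested, 40.0% were lower and 46.3% higher. DHCR7, the last enzyme of cholesterol synthesis, was at 3182, 3381 and 3292 CPM in set 1 and at 752, 796 and 780 CPM in set 2, a log2 difference of -2.08 ± 0.05. MVK, mevalonate kinase, differed by -1.92 ± 0.10 and INSIG1, which holds SREBP in the endoplasmic reticulum, by -1.02 ± 0.05. FDFT1, squalene synthase, was higher by 0.83 ± 0.06 and STARD4, a cholesterol carrier, by 1.13 ± 0.07. After removal of the trend on GC content and length, STARD4 turned to -0.16, MSMO1 from 0.87 to -0.63, EBP from -0.24 to 0.39 and SREBF1 from -0.92 to 0.30.

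Of 9 adhesion and matrix genes, 7 were higher in set 2, against 46.3% of all genes tested. Among the 7 were ITGB2, ITGAX and MMP9 above. A2M, a broad protease inhibitor, was at 0.261 ± 0.226 and 11.5 ± 2.08 CPM (SD, n = 3). MMP25, a membrane-anchored metalloproteinase of leukocytes, was at 334, 428 and 470 CPM in set 1 and at 154, 154 and 152 CPM in set 2, a log2 difference of -1.42 ± 0.12 that was 0.12 after removal of the trend. SELPLG, the ligand of P-selectin, differed by -1.13 ± 0.08. Among noncoding RNAs, the nuclear RNAs MALAT1 and NEAT1 differed in opposite directions, by 0.72 ± 0.05 and -1.10 ± 0.07. ITGB2-AS1, the antisense RNA of ITGB2, was at 3.13 ± 2.07 and 113 ± 21.3 CPM (SD, n = 3), and without the strand its reads and those of ITGB2 cannot be told apart.

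Among genes of at least 20 CPM over the 6 libraries, leaving out noncoding and pseudogene symbols, the 12 with the largest differences above set 1 were CXCL10, CD163, IFI44L, SPP1, IFI44, S100A8, MMP9, S100A9, MMP1, SLC12A8, IFI27 and CXCL8. MMP1, the interstitial collagenase, was at 1.44, 0 and 0.785 CPM in set 1 and at 118, 103 and 102 CPM in set 2. SLC12A8, of a family of cation and chloride cotransporters, was at 1.44, 1.95 and 0.393 CPM and at 168, 175 and 157 CPM. Of these 12, 4 are interferon targets on the lists, which hold 26 of the 902 shared genes. A further 3 belong to the monocyte list, which holds 23 of them. Apart from MMP9 and S100A9, the 12 had fewer than 10 counts in every IgG library of set 1. Those genes came past the filter, and so into this ranking, only through set 2.

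The 12 largest differences below set 1 were smaller and belonged to no common list. Genes with few counts in set 2 may be missing from the shared genes, which bears on this contrast in size. They were PCYT1B, ACOT11, RILP, PLEKHN1, HOOK2, SPNS3, BORCS6, FAAP100, HSF2BP, ADCY6, TMEM266 and ARHGAP4. PCYT1B, an enzyme of phosphatidylcholine synthesis, was at 50.5, 54.9 and 43.6 CPM in set 1 and at 1.81, 1.81 and 1.27 CPM in set 2, a log2 difference of -4.90 ± 0.28. ACOT11, an acyl-CoA thioesterase, was at 129, 156 and 143 CPM and at 10.8, 9.41 and 9.84 CPM, a log2 difference of -3.82 ± 0.16. ARHGAP4, a GTPase-activating protein of blood cells, was at 3837, 4941 and 5076 CPM and at 725, 777 and 717 CPM, a log2 difference of -2.64 ± 0.10. RILP and BORCS6 act in the positioning of lysosomes, and HOOK2 links cargo to dynein. GC content of the longest transcript, in the order named, was 47.9%, 49.6%, 66.1%, 66.2%, 62.0%, 62.5%, 61.5%, 65.8%, 50.0%, 56.7%, 59.7% and 65.5%. The median over all shared genes was 51.5%. The part of GC content in these differences was not tested. Exons of other genes cover 29.4% of the exon bases of BORCS6 on the opposite strand.

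The size of the difference between IgG groups can be set beside the effect of each antibody against its own IgG. Over the 866 genes fitted in all 3 comparisons, the median size of the log2 difference was 0.84 between the IgG groups, 0.21 for the antagonist and 0.37 for the agonist. The scales are unlike. The antagonist was fitted with TMM factors over all named genes of set 1, the agonist on totals of the set 2 genes and the IgG groups on totals of the shared genes. The agonist value comes from genes of which nearly all differed in that comparison, and each antibody comparison shares its IgG libraries with the comparison of the sets, so only values are given. For GBP2 the log2 differences were 5.06 between IgG groups, -0.19 for the antagonist and 0.16 for the agonist. They were 7.50, -0.17 and 0.71 for MMP9, -2.33, -0.06 and -0.60 for MYC, and 2.22, -0.15 and -0.40 for KIF23.

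The same split of sets was looked at in the 6 antibody libraries, which share no library with the IgG comparison but add the difference between agonist and antagonist to it. Of 896 genes tested, 805 (89.8%) differed between agonist and antagonist libraries, 393 (43.9%) higher and 412 (46.0%) lower in set 2. Over 888 genes fitted both times, the log2 differences had a Pearson's r of 0.948 and a Spearman's rho of 0.925, a correlation across genes that share one table split and are not independent replicates. Of 698 genes called both times, 671 had the same sign and 27 the opposite. The interferon gamma list had 10 of 11 higher and 1 lower again, with a median of 2.61, and the monocyte list had 23 of 23 higher, with a median of 3.22. Ribosomal proteins had 16 of 17 lower again, with a median of -1.15. The counts differed for other lists: the nuclear respiratory chain had 2 higher and 2 lower, with a median of 0.12 against -0.30 in the IgG libraries, and the sterol list had 5 higher and 6 lower, with a median of -0.03 against -0.42.

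**Figure D4:**
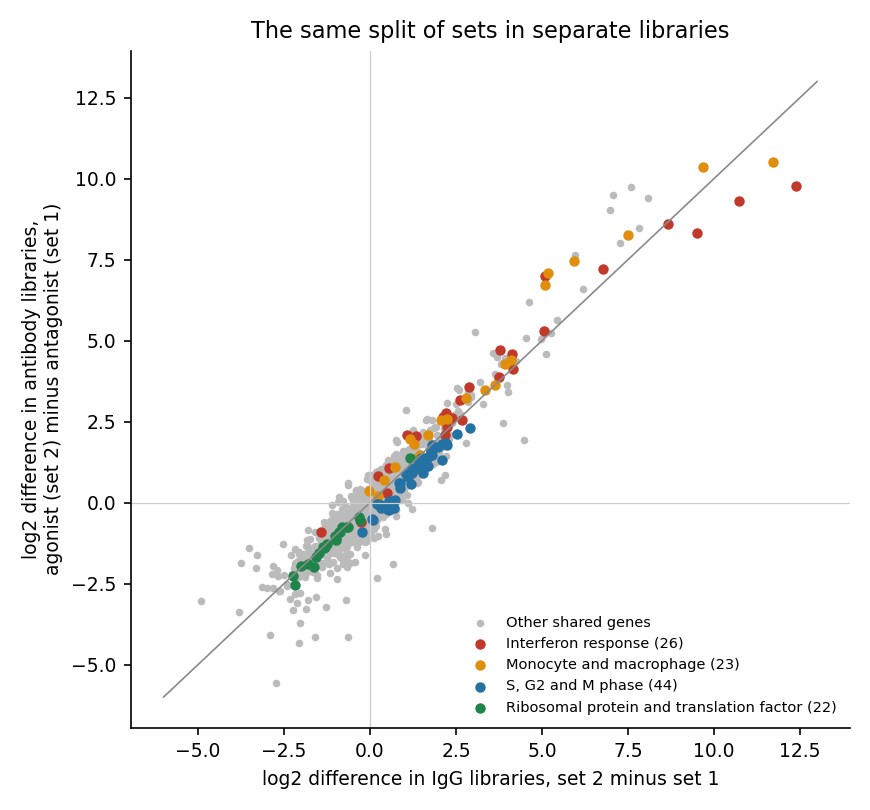
Log2 difference between sets in the IgG libraries (x axis, set 2 minus set 1) and in the antibody libraries (y axis, agonist of set 2 minus antagonist of set 1), 1 point per gene, coloured by list, with the line of equal difference; genes at 0 counts in set 1 are drawn at fitted values that depend on the prior count. Points of the interferon, monocyte and ribosomal lists lie along the line, over 888 genes with a Pearson's r of 0.948, and the median of the genes of G2 and mitosis is 1.24 on the x axis and 0.97 on the y axis.

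Cell cycle genes had smaller differences between the antibody libraries than between the IgG libraries. Of 34 genes of G2 and mitosis, 24 were higher and 4 lower in the agonist libraries than in the antagonist libraries, with a median log2 difference of 0.97 against 1.24 in the IgG libraries. MKI67 was at 0.71 in the IgG comparison and -0.15 in the antibody comparison, and PLK1 at 0.32 and -0.07. These gaps hold the effects of the antibodies, which differ in direction for some genes, and the difference between the gaps was not tested. ND5 was at 1.12 in the IgG comparison and 0.00 in the antibody comparison.

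The difference between the IgG groups went along with the GC content of transcripts. Over 884 genes with a transcript in GENCODE v29, Spearman's rho of the log2 difference with GC content was -0.409, and -0.341 in the antibody libraries, as a description across genes. In 5 equal bins of GC content the median log2 difference was 0.92, 0.39, 0.07, -0.10 and -0.92 from the lowest to the highest. The same measure with transcript length was 0. The part of GC content in the result was not tested, but the lists can be read with the trend removed.

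**Figure D5:**
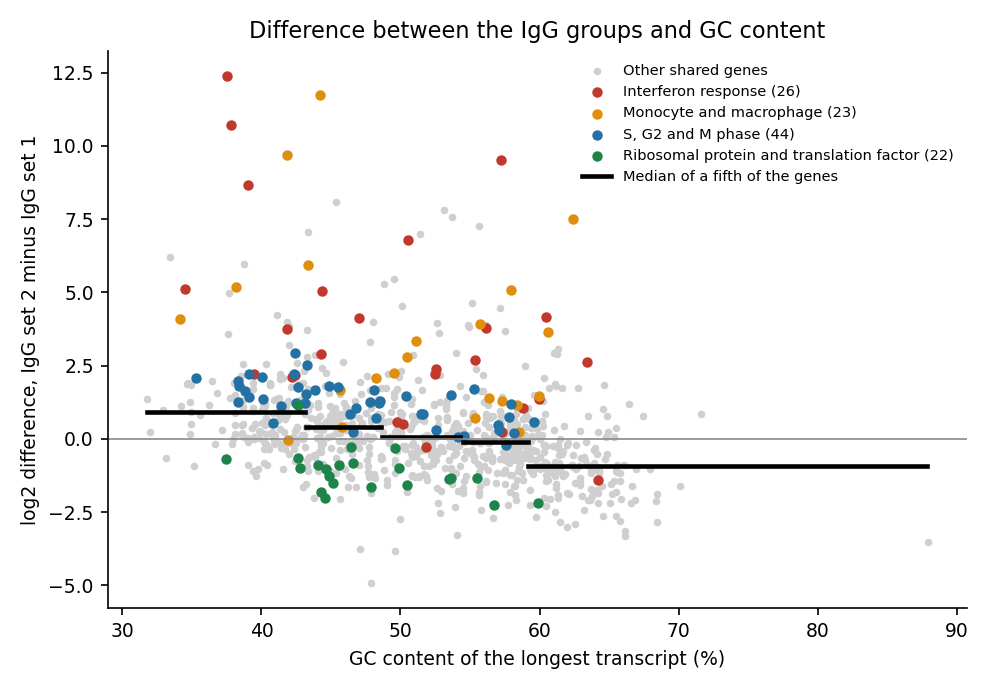
Log2 difference between the IgG groups (y axis) against the GC content in percent of the longest transcript of each gene (x axis), with the median of each of 5 equal bins of genes as a black bar. The medians go down from 0.92 to -0.92, with single genes (coloured by list) scattered widely around them, and the 5 genes at 0 counts in set 1 are drawn at fitted values that depend on the prior count.

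With that trend and the trend on length removed by a smooth fit, the median over all genes moved by 0.14, from 0.08 to 0.22. The list medians became 2.52 for interferon gamma, 2.25 for type I interferon, 2.47 for monocyte genes, 1.75 for immediate early genes, 1.16 for S phase, 0.86 for G2 and mitosis, -1.68 for ribosomal proteins and -1.28 for translation factors. None of these 8 medians changed sign, and 578 of the 770 calls were kept with their direction. MHC genes had a median of 1.64 after the removal, and the 5 iron and oxidative stress genes, 4 higher and 1 lower with a median of 1.14 before it, had 1.92 with all 5 higher. Of the 445 genes with no exon shared with another gene, 389 differed, with a median size of 0.94 against 0.87 among 90 genes with 20% or more of their exon bases shared.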

How the data were processed

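RNA of U937 cells was sequenced in 12 libraries, 3 in each of 4 groups, and the 6 IgG libraries were compared. The values are read counts per gene, as the authors deposited them in 2 tables. Per the submitters' processing notes the build was hg38 and the tools HISAT2 and Cufflinks. Neither the counting program nor the annotation or the use of strand is stated there. Genes were joined by symbol, and counts were divided by the total of the 902 shared genes, which is not the depth of a library. Each antibody was fitted against its own IgG in its own table, with TMM factors for the antagonist and plain totals for the agonist.

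Genes past edgeR's filterByExpr (minimum count 10, minimum total 15) were tested with edgeR 4.0.16 (R 4.3.3) by its quasi-likelihood test (robust), adjusted after Benjamini and Hochberg over all 892, at 0.05, and against a 2-fold difference. Values after ± are SE for log2 differences and SD for CPM. Counting intervals cover counting error only, since reads without molecular identifiers are not independent molecules. The procedure was tested on simulated data: of 50 genes changed at each size, 78%, 98%, 100% and 100% were called at log2 sizes of 0.3, 0.5, 1 and 2, and 0.434% of unchanged genes were called, among 891 genes. Most genes were left unchanged in that simulation, and changes went in random directions. In the data 86.3% of tested genes differed and abundant genes moved, so these rates need not hold for the comparison itself.

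The members and gene lists were chosen with earlier results of these data known. Genes were named by a rule: the 12 largest differences in each direction among separated genes of at least 20 CPM, from each list of 3 or more shared members up to 4 with the largest and 2 with the smallest difference, and set interferon gamma targets. Other list members given as examples lie outside the rule and were chosen after their values were seen. Transcript GC content, length and exon overlap came from GENCODE v29, which matched 893 of 902 genes (99%), and promoters from RefSeq. Alternatives were TMM factors, DESeq2 1.42.0, limma-voom (limma 3.58.1), other filters and totals, all 12 libraries in 1 fit, leaving out each library and, chosen after seeing the data, removal of the GC and length trend and genes without exon overlap. Some members of the lists are counted with their list but not reported singly here.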

Additional observations from a re-analysis of the deposited data

Results flagged for a closer look

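In 36 of the 902 shared genes, and in 5 of the 143 genes named by rule, every IgG library of set 2 lay on one side of every IgG library of set 1 while the agonist libraries lay on the opposite side of the antagonist libraries. In none of the 5 was the difference between these effects tested. RNASE2, a granule ribonuclease, had a log2 difference of -0.30 between the IgG groups and 0.42 between the antibody groups. RUNX1, the haematopoietic transcription factor, had 0.47 and -0.36. UHRF1, which maintains DNA methylation at replication, had 0.09 and -0.52, but its IgG difference did not pass edgeR's test (adjusted p = 0.232). CRELD2, a stress protein of the endoplasmic reticulum, had -0.12 and 0.29, and its IgG difference did not pass either (adjusted p = 0.135). EBP, a sterol isomerase, had -0.24 and 0.20.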

How the results depend on the processing

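Of the 770 calls, 746 kept their direction and call with TMM factors and 742 with DESeq2, which both moved the median of all genes by -0.07 on the log2 scale. The count ran from 744 to 782 when each library was left out in turn, and the count past 2-fold from 310 to 349. Among only the genes without exon overlap with another gene the counts were 389 and 182, because 445 genes were tested. With the GC and length trend removed 760 genes passed, 441 higher and 319 lower, and 25 of the 239 genes checked singly reversed, with values of -0.59 for SRGN, 0.19 for S100A4, 0.49 for PIK3CD, 0.28 for CCNF, -0.33 for RNR1, -0.25 for ND4L, 0.34 for ATP5MF, -0.29 for NOLC1, -0.29 for HSPA4, -0.55 for HSPH1, -0.23 for ASNS, 1.00 for CTSZ, -0.16 for STARD4, 0.39 for EBP, 0.12 for MMP25, -0.21 for AURKA, 1.00 for CTSD, -0.10 for FCGR2A, 0.42 for LY6E, 0.71 for MCOLN1, -1.01 for MRPS22, -0.63 for MSMO1, -0.49 for NPC2, 0.01 for SLC9A3-AS1 and 0.30 for SREBF1. The cause was not tested. None of the genes checked singly (240, or 234 at the 20 CPM filter and 130 without exon overlap) reversed under the other alternatives run. Without library 1 of IgG set 1, NDUFA1 and LINC00115 no longer passed and PIK3CD, ASNS, CTSZ and MRPS22 were among those that newly passed. No paired analysis was possible because the columns carry no replicate numbers. With 3 libraries a group, differences near the spread between libraries were not resolved, and genes at 0 counts in set 1 have only a lower bound.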
